A study of Mus musculus with 4 samples.

Results

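Tac2 neurons are described here as nuclei selected on their own *Tac2* transcripts in single-nucleus RNA sequencing (snRNAseq) of the mouse arcuate nucleus (ARC). A kept nucleus was a member when it held at least 3 *Tac2* UMIs (unique molecular identifiers, which count captured transcripts) that made up at least 0.05% of its UMIs, with fewer than 5 *Agrp* UMIs and *Pomc* below 0.2% of UMIs. This rule found 799 of 39176 kept nuclei (2.04%), and 729 of the 799 also passed the limit that defined neurons (*Snap25* plus *Syt1*, at least 2 UMIs). They were compared with the 29459 other kept neurons. Because *Tac2*, *Agrp* and *Pomc* chose the members, values of these 3 genes are a description and carry no test.

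The nuclei came from ARC punches of wildtype male C57BL/6J mice, 10 weeks of age, after 3 weeks of DOCA-salt (a subcutaneous pellet of deoxycorticosterone acetate with saline to drink besides water) or of Sham treatment. There were 4 libraries, DOCA-salt 1, DOCA-salt 2, Sham 1 and Sham 2, each a pool of nuclei of 2 mice, and the library was the unit of replication throughout. Where 4 values are given in a row, they follow this order. Total counts were 45126915, 79437196, 53257230 and 59293582 UMIs over 10765, 19754, 2805 and 8325 barcodes. Males only were studied, and a punch can take in tissue around the ARC.

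*Tac2* encodes neurokinin B, a tachykinin peptide that acts on the neurokinin-3 receptor, the product of *Tacr3*. In the ARC, neurokinin B is known from KNDy neurons, which also make kisspeptin (*Kiss1*) and dynorphin (*Pdyn*), carry receptors for sex steroids and prolactin, and drive the pulsatile release of gonadotropin-releasing hormone. Dynorphin acts on the kappa opioid receptor (*Oprk1*) and ends each burst that neurokinin B starts. *Tac2* is also transcribed in neurons outside the ARC, among them GABAergic neurons of the amygdala and of other forebrain regions.

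Members numbered 227, 396, 37 and 139 nuclei. DOCA-salt 2 alone gave 49.6% of all members. The median member held 3762, 4347.5, 10351 and 6819 UMIs, against 3311, 3109, 8277 and 4528 in the other neurons, so members were deeper than their neighbors in every library and Sham nuclei were deeper than DOCA-salt nuclei. Mitochondrial UMIs in the median member were 4.35%, 5.30%, 3.86% and 5.02%. Scrublet scores (a doublet caller run on each library) marked 17, 70, 0 and 7 members, with the largest share in DOCA-salt 2 (17.7% of its members against 15.1% of its kept nuclei). Between 5 and 49 barcode sequences were shared by any pair of libraries, at most 0.565% of the smaller library.

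As a description of the rule, the median member held 7, 6, 11 and 8 *Tac2* UMIs, and the highest 27, 38, 80 and 50. Just inside the limit, 32, 80, 3 and 18 members held exactly 3 *Tac2* UMIs. Just outside it, 30, 74, 1 and 24 neurons that passed the other limits held 2. Only the latter count required the neuron limit, so that the 2 sides are not counted alike. Members thus crowd at the lower edge in DOCA-salt 2, where 20.2% of them sat at 3 UMIs, against 14.1%, 8.11% and 13.0% in the other libraries. Summed over members, *Tac2* was at 1615, 1285, 1448 and 1172 CPM (UMIs per 1e6 UMIs of the summed nuclei), and in the other neurons at 24.8, 27.2, 34.9 and 35.4 CPM. *Tac2* lies on chromosome 10, from 127724478 to 127731768 (GRCm38).

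RNA free in the suspension sets a background for every gene. Nuclei rich in myelin transcripts and without *Snap25* or *Syt1* served to measure it (120, 412, 4 and 237 nuclei, median 891, 873.5, 1717.5 and 1319 UMIs). They should lack *Tac2*, yet held it at 30.9 CPM in DOCA-salt 1, 41.7 in DOCA-salt 2 and 33.0 in Sham 2, close to the other neurons. These levels are rough, since only 4, 10 and 10 of the nuclei in these libraries held any *Tac2* UMI. The 4 myelin-rich nuclei of Sham 1 are too few for a level. A single *Tac2* UMI in a nucleus can therefore not be told from background in these 3 libraries. The rule admitted 1 of the 773 nuclei, which at their low depth could hardly reach 3 *Tac2* UMIs, so that this count says little about background among the deeper members.

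Of the members, 186, 378, 37 and 128 passed the neuron limit, and the rest were added to the neurons as the base of this share. Members made up 3.05%, 2.70%, 1.70% and 2.33% of that base. Exact binomial 95% intervals, which cover counting error only, were 2.67 to 3.46, 2.44 to 2.97, 1.20 to 2.34 and 1.96 to 2.75. The mean share was 2.87% ± 0.247 (SD, n = 2) in DOCA-salt and 2.02% ± 0.444 (SD, n = 2) in Sham, and the 2 groups did not overlap. The difference of 0.855 percentage points had p = 0.333 in a two-sided exact permutation test over libraries, which is the smallest p that 2 against 2 can give. It was 0.541 points without Sham 1, 1.17 without Sham 2 and 1.40 among nuclei of 2000 to 10000 UMIs. As a share of all kept nuclei, members differed by 0.413 points. The share moved with depth, and the part of the position of the punch was not tested. Thinning nuclei to 2000 UMIs before the rule was applied gave 2.26%, 1.74%, 0.797% and 1.13%.

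The members were not of 1 kind. *Slc17a6* (the vesicular glutamate transporter VGLUT2) outnumbered *Slc32a1* (the vesicular GABA transporter) in 138, 41, 12 and 80 members, called glutamatergic here, and the reverse held in 23, 257, 23 and 42, called GABAergic. In 183 members neither prevailed, 151 of which held no UMI of either gene. Glutamatergic nuclei were 60.8% of members in DOCA-salt 1 and 57.6% in Sham 2, but 32.4% in Sham 1 and 10.4% in DOCA-salt 2. The 2 libraries of each treatment thus lay farther from each other than the means of the treatments did. DOCA-salt 2 supplied 74.5% of all GABAergic members.

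**Figure D1:**
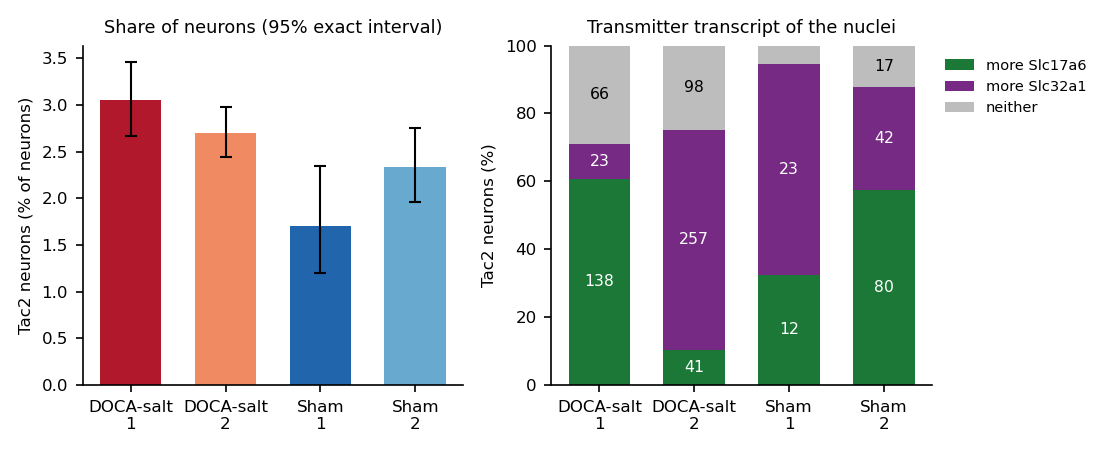
Left, Tac2 neurons as a percentage of neurons (members below the neuron limit included) in each library, with exact binomial 95% intervals as error bars. Right, percentage of Tac2 neurons with more *Slc17a6* than *Slc32a1* UMIs, with more *Slc32a1*, or with neither, and the number of nuclei in each block (the block without a number, in Sham 1, holds 2 nuclei). Glutamatergic nuclei prevail in DOCA-salt 1 and Sham 2, and GABAergic nuclei in DOCA-salt 2 and Sham 1.

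The 3 companion markers given with the label, *Pdyn*, *Tacr3* and *Prlr*, were then checked in each library. At least 1 UMI of *Pdyn* or *Tacr3* was found in 74.4%, 15.7%, 43.2% and 59.7% of members, against 19.8%, 15.9%, 24.4% and 20.9% of other neurons. In DOCA-salt 2 the members were thus no richer in these transcripts than their neighbors, despite greater depth. Among glutamatergic members the share was 79.0%, 31.7%, 75% and 81.3%, and among GABAergic members it was 65.2%, 14.4%, 30.4% and 21.4%. By *Pdyn* and *Tacr3*, the KNDy reading of the label thus held in DOCA-salt 1 and in the glutamatergic nuclei of Sham 1 and Sham 2. It did not hold in the members of DOCA-salt 2 as a whole, nor in the GABAergic nuclei of Sham 2. The glutamatergic members of DOCA-salt 2 exceeded its other neurons in this share, but were deeper (median 6607 against 3109 UMIs). Per UMI they did not exceed them, with *Pdyn* at 42.3 and *Tacr3* at 16.3 CPM, below the levels of other neurons given further down. *Prlr* was less selective, at 75.9 CPM in members of DOCA-salt 2 against 68.2 in its other neurons and at 336 CPM in GABAergic members of Sham 2 against 222. All nuclei are therefore called Tac2 neurons by the rule alone. *Kiss1* had no UMI in any member (0 of 227, 396, 37 and 139 nuclei, which allows shares of up to 1.32%, 0.758%, 8.11% and 2.16% for nuclei with a UMI, not for nuclei that express the gene) and 2 UMIs among all kept nuclei of the 4 libraries, so that it could not serve as a marker in these data.

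Levels were compared with edgeR's quasi-likelihood test on UMIs summed per library, with the library as a block and the false discovery rate (FDR) taken over all 15316 genes tested besides the 3 rule genes. Members were higher in 130 genes (0.849% of those tested) and lower in 112 (0.731%) at an FDR below 0.05. Of the 4 tested genes of the KNDy peptides and their receptors other than *Tac2* (6 listed), 3 were called, all higher, and the median log2 fold change of the 4 was 1.14 against -0.02 over all genes tested. *Tac2* itself is left out of that count, and *Kiss1* was too low to test.

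*Pdyn* (chromosome 2, 129686565 to 129699844), the precursor of dynorphin, was at 254, 38.2, 124 and 215 CPM in members and at 61.0, 47.6, 33.4 and 52.8 CPM in other neurons. It was higher in members of 3 libraries and not in DOCA-salt 2, with a log2 fold change of 1.46 ± 0.24 (SE, FDR 0.00178). *Tacr3* (chromosome 3, 134829007 to 134934579), the receptor of neurokinin B, was at 124, 12.6, 21.8 and 26.9 CPM in members and at 9.85, 17.2, 5.20 and 5.32 in other neurons. Again DOCA-salt 2 alone ran the other way, and the log2 fold change was 2.01 ± 0.44 (FDR 0.0176). *Prlr* (chromosome 15, 10177238 to 10349180), the prolactin receptor, reached 683, 75.9, 383 and 449 CPM in members and 145, 68.2, 166 and 222 in other neurons, higher in all 4 libraries (1.20 ± 0.19, FDR 0.000798), although in DOCA-salt 2 by little.

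These 3 calls were not made by DESeq2 (FDR 0.272, 0.337 and 0.237). Without Sham 1 none of the 3 passed in edgeR (1.38, 2.00 and 1.20), and *Tacr3* also failed without DOCA-salt 1 (0.98). Without DOCA-salt 2 all 3 were called, at 2.01, 2.97 and 1.52. With only the glutamatergic members the log2 fold changes were 2.17 for *Pdyn*, 2.71 for *Tacr3* and 1.5 for *Prlr*, all called, and with only the GABAergic members -0.26, 0.14 and 0.68, of which *Prlr* alone was called. *Oprk1*, the dynorphin receptor, was higher in all 4 libraries, at 147, 82.2, 102 and 84.0 CPM against 72.1, 55.2, 45.9 and 51.8 (0.81 ± 0.10, FDR 7.57e-05). *Kiss1r*, the kisspeptin receptor, was at 6.41 to 8.40 CPM in members and 6.64 to 7.22 in other neurons (0.08 ± 0.28, FDR 0.988).

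**Figure D2:**
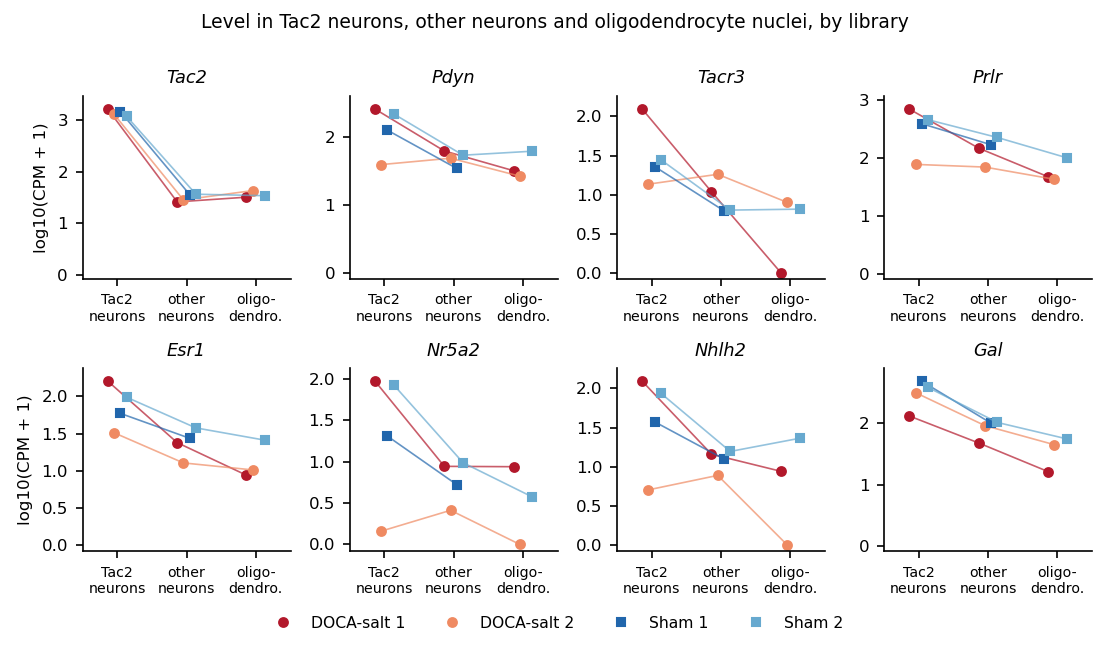
Level of 8 genes, as log10 of CPM plus 1, in the summed Tac2 neurons, other neurons and oligodendrocyte nuclei of each library (circles DOCA-salt, squares Sham, lines join the values of 1 library, and the 4 oligodendrocyte nuclei of Sham 1 are not drawn). In DOCA-salt 2, *Pdyn*, *Tacr3*, *Nr5a2* and *Nhlh2* do not lie above the other neurons, whereas *Gal* lies above them in all 4 libraries.

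Of 15 receptors for sex steroids, prolactin and metabolic hormones, 4 were higher in members and 1 lower, with a median log2 fold change of 0.02. *Esr1*, the estrogen receptor alpha, was at 159, 31.5, 58.2 and 96.6 CPM in members and at 22.9, 11.8, 26.4 and 36.8 in other neurons (1.79 ± 0.20, FDR 1.24e-05), above its neighbors in every library, DOCA-salt 2 included. *Pgr*, the progesterone receptor, was also higher in 4 of 4 libraries (0.74 ± 0.12, FDR 0.000998). *Ghr*, the growth hormone receptor, was lower (-0.80 ± 0.20, FDR 0.0458), but higher in Sham 1, called only in the fit without DOCA-salt 2 of the fits that left out a library, and not called by DESeq2 (FDR 0.337). *Lepr*, the leptin receptor, stayed between 4.49 and 8.25 CPM in members.

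Among 15 transcription factors of the ARC and its surroundings, 3 were higher and 5 lower. *Nr5a2*, an orphan nuclear receptor, was at 93.4, 0.449, 19.4 and 84.0 CPM in members and at 7.80, 1.59, 4.28 and 8.74 in other neurons (2.81 ± 0.36, FDR 0.000108). *Nhlh2*, a basic helix-loop-helix factor of hypothalamic neurons, was at 123, 4.04, 36.4 and 85.7 CPM against 13.4, 6.72, 11.5 and 14.6 (2.11 ± 0.34, FDR 0.0012). Both were lower in members than in other neurons of DOCA-salt 2, and neither passed in DESeq2 (FDR 0.43 and 0.439). *Tbx3*, a factor of ARC peptide neurons, differed by 0.73 ± 0.14 (FDR 0.00798), but it was almost missing from DOCA-salt 2 as a whole, at 2.60 CPM in other neurons against 61.1, 24.9 and 51.8 in the other libraries. This call was lost without DOCA-salt 1 and in DESeq2 (FDR 0.0954). The lower factors were *Otp* (-1.29 ± 0.13), *Fezf1* (-1.81 ± 0.20), *Sim1*, *Nr5a1* and *Meis2*, which are known from the paraventricular and ventromedial nuclei and from the striatum. The last 3 were not called by DESeq2, and each was lost without 1 library (*Sim1* without Sham 1, *Nr5a1* without Sham 2 and *Meis2* without DOCA-salt 1).

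Of 17 tested neuropeptides other than those above (18 listed), 2 were higher and 10 lower, the median being -0.87. *Gal*, the galanin precursor on chromosome 19 (3409915 to 3414544), rose most evenly, with 131, 316, 485 and 384 CPM in members against 47.0, 91.2, 99.7 and 103 in other neurons (1.85 ± 0.09, FDR 6.51e-11). *Ghrh* (0.77 ± 0.18, FDR 0.0255) was at 150, 10.3, 70.3 and 124 CPM in members, below the other neurons in DOCA-salt 2. It was found in only 2.27% to 16.2% of members, and was called neither by DESeq2 (FDR 0.304) nor without DOCA-salt 1, Sham 1 or Sham 2. *Avp* (-1.85 ± 0.11), *Oxt* (-2.38 ± 0.24), *Trh* (-1.67 ± 0.11), *Npy* (-1.43 ± 0.12), *Sst* (-0.87 ± 0.08) and *Adcyap1* (-1.48 ± 0.18) were lower in 4 of 4 libraries. *Npy* and *Cartpt* are made by the AgRP and POMC neurons that the rule kept out of the members. *Pmch*, the precursor of melanin-concentrating hormone, was at 1.83, 1231, 12.1 and 7.56 CPM in members, at 32.1, 2930, 44.5 and 31.9 in other neurons and at 1252 CPM in the oligodendrocyte nuclei of DOCA-salt 2. Its level in the members of that library was thus no higher than in nuclei that should lack it. *Hcrt*, the orexin precursor, was at 1352 CPM in members of DOCA-salt 2, at 783 in its other neurons and at 399 in its oligodendrocyte nuclei, and at 5.04 CPM or less in members of the other libraries (FDR 0.092).

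**Figure D3:**
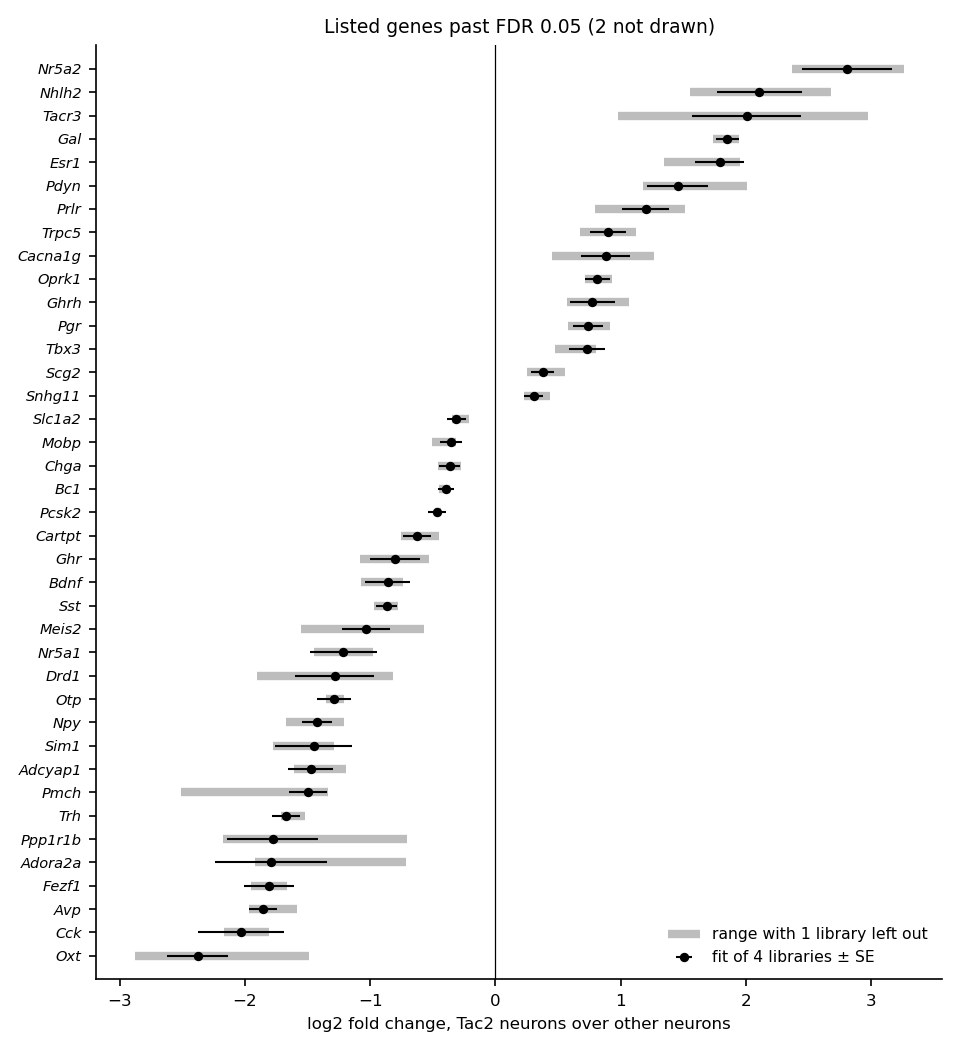
Log2 fold change of Tac2 neurons over other neurons for listed genes past an FDR of 0.05, 2 of which are not drawn (points, bars of 1 SE, edgeR fit of 4 libraries) with the range of fits that leave out 1 library in gray. *Nr5a2*, *Nhlh2*, *Tacr3*, *Gal* and *Esr1* lead the higher genes and *Oxt* the lower ones, and *Tacr3* and *Ppp1r1b* have wide gray ranges.

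Fewer genes differed in the remaining lists. Of 14 genes of peptide processing and secretory granules, *Scg2* was higher (0.38 ± 0.09, FDR 0.0404) and *Pcsk2*, a prohormone convertase (-0.47 ± 0.07, FDR 0.0011), and *Chga* (-0.37 ± 0.09, FDR 0.0315) were lower. *Scg2* was lost without DOCA-salt 1, Sham 1 or Sham 2, *Chga* without DOCA-salt 1 or Sham 2, and DESeq2 called *Pcsk2* alone. Of 20 channel genes, *Trpc5*, a cation channel (114, 30.6, 146 and 112 CPM against 40.1, 26.9, 72.8 and 61.3, 0.90 ± 0.14, FDR 0.0011), and *Cacna1g*, a T-type calcium channel (0.88 ± 0.19, FDR 0.0191), were higher, the latter not in DOCA-salt 2 nor by DESeq2 (FDR 0.0601). *Trpc5* was lost without Sham 1 and *Cacna1g* without Sham 1 or DOCA-salt 1. No gene was called among 7 other tachykinin and opioid genes, 9 transmitter genes, 18 glutamate and GABA receptor subunits and 9 immediate early genes.

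Genes near the treatment itself did not pass the test in members. Of 8 tested corticosteroid receptors and targets and 5 tested renin-angiotensin genes (9 listed in each) none was called, although 6 of the 8 and 4 of the 5 had negative fold changes (medians -0.30 and -0.14). *Nr3c2*, the mineralocorticoid receptor, on which deoxycorticosterone acts, was at 10.1, 11.2, 12.1 and 11.8 CPM in members and at 18.0, 11.7, 21.3 and 16.2 in other neurons (-0.46 ± 0.21, FDR 0.456). *Hsd11b2*, the enzyme that shields this receptor from glucocorticoids, had 2 UMIs in members of DOCA-salt 2 and 0 in those of the other libraries. *Agtr1a*, the angiotensin II receptor, had 4, 3, 0 and 1 UMIs in members.

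Beyond the lists, the genes of largest fold change that were higher in members of 4 of 4 libraries were led by *Col24a1*, a fibrillar collagen chain (chromosome 3, 145292472 to 145552011), at 145, 2.70, 89.8 and 89.1 CPM against 4.62, 1.28, 2.55 and 3.5 (4.36 ± 0.37, FDR 4.29e-07), with no UMI in any oligodendrocyte nucleus. *Nxf3*, of the nuclear RNA export factor family, followed (3.65 ± 0.35), but with 1 UMI in the members of DOCA-salt 2. *Inhbb*, the inhibin beta B subunit, was at 32.1, 5.39, 31.5 and 34.5 CPM against 3.30, 3.14, 3.71 and 4.74 (2.55 ± 0.33, FDR 0.000106). *Greb1*, an estrogen-responsive gene, differed by 2.41 ± 0.21, *Vgll3*, a transcriptional cofactor, by 2.13 ± 0.19, *Npr3*, the natriuretic peptide clearance receptor, by 1.83 ± 0.27, *Lhx5*, a LIM homeobox factor, by 1.75 ± 0.33 and *Socs1*, an inhibitor of cytokine signaling, by 1.73 ± 0.26. *Col24a1*, *Inhbb*, *Greb1*, *Vgll3*, *Npr3*, *Lhx5* and *Socs1* were called with each library left out and by DESeq2. *Gm27199* (1.81 ± 0.31) overlaps *Lhx5*, so its counts may be shared with it. At the other end, *Npvf*, an RF-amide precursor, had 10 UMIs in members of DOCA-salt 2 and 0 in the others, against 2332 UMIs in the other neurons of DOCA-salt 2.

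Glutamatergic and GABAergic members were then compared with each other within libraries. Besides the 2 genes that made the split, 58 of 7861 tested genes (0.738%) were higher in glutamatergic members and 46 (0.585%) in GABAergic members (DESeq2 called 18 genes in all). Of the 7 tested markers of Tac2 neurons (11 listed, with *Tac2* and *Slc17a6* left out as genes of the rule and the split), 5 were higher in glutamatergic members and none lower, with a median of 0.95. *Tac2* itself, as a description, did not follow, at 1628, 1086, 1582 and 1137 CPM in glutamatergic and at 1069, 1254, 1411 and 1235 in GABAergic members.

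*Pdyn* was at 279, 42.3, 311 and 318 CPM in glutamatergic and at 108, 33.6, 27.0 and 32.8 in GABAergic members (2.00 ± 0.25, FDR 1.42e-06), higher in all 4 libraries and in each fit that left out 1. *Tacr3* was at 136, 16.3, 42.4 and 36.0 CPM against 41.3, 11, 11.6 and 5.46 (1.57 ± 0.34, FDR 0.00535). *Nr5a2* was at 118, 0, 56.5 and 118 CPM against 36.1, 0.647, 0 and 13.7 (2.57 ± 0.37, FDR 1.47e-05). The glutamatergic members of DOCA-salt 2 thus lacked *Nr5a2* and were the lowest of the 4 libraries in *Pdyn* and *Tacr3* as well. *Prlr* (0.60 ± 0.13), *Esr1* (0.95 ± 0.23) and *Nhlh2* (2.11 ± 0.30) were also higher in glutamatergic members. With Sham 2 left out, *Tacr3*, *Nr5a2*, *Prlr*, *Esr1* and *Nhlh2* were no longer called, and with Sham 1 left out, *Tacr3*, *Prlr* and *Esr1* were not. *Tacr3* was also lost without DOCA-salt 1, and DESeq2 called *Nr5a2* and *Nhlh2* (FDR 0.0123 and 0.00932) but not *Pdyn*, *Tacr3*, *Prlr* or *Esr1* (FDR 0.337, 0.355, 0.219 and 0.634).

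GABAergic members were higher in *Gad2* (1.49 on the log2 scale, SE 0.12) and *Gad1*, the enzymes of GABA synthesis, and in *Dlx1*, a homeobox factor of forebrain GABAergic neurons, at 119, 108, 170 and 221 CPM against 20.7, 65.0, 28.3 and 44.3 (FDR 5.67e-07). They were also higher in *Gal*, at 191, 308, 636 and 675 CPM against 103, 215, 240 and 257 (FDR 2.32e-06), and in *Vgf*, a granule protein precursor, at 222, 298, 490 and 555 CPM against 128, 205, 127 and 179 (FDR 3.44e-06). Both differences held in each of the 4 libraries and DESeq2 called both, but *Vgf* was not called without Sham 2. *Nts*, the neurotensin precursor, was at 5.16, 71.8, 509 and 385 CPM in GABAergic and at 7.38, 58.5, 77.7 and 60.9 in glutamatergic members, a wide difference in the Sham libraries that was slight or absent in the DOCA-salt libraries (FDR 5.55e-07, but lost without Sham 2 and not called by DESeq2). *Hcrt* was called higher in GABAergic members (FDR 0.000152) on DOCA-salt 2 alone, with 2595 UMIs there and 0 in the other libraries, and not by DESeq2.

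**Figure D4:**
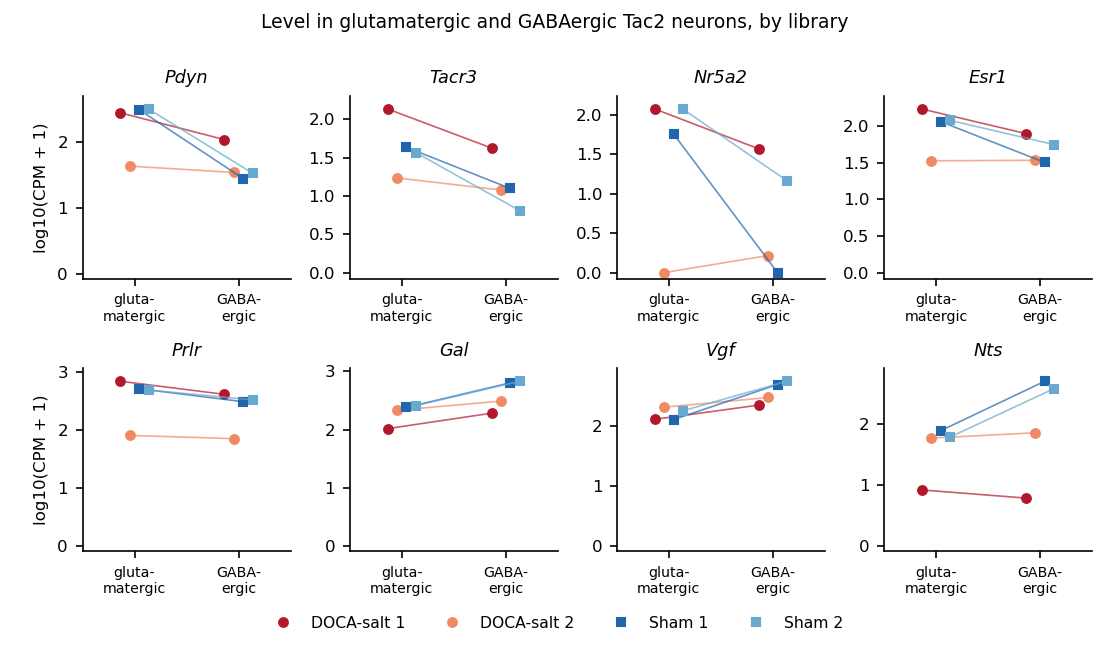
Level of 8 genes, as log10 of CPM plus 1, in the glutamatergic and the GABAergic Tac2 neurons of each library (circles DOCA-salt, squares Sham, lines join the values of 1 library). *Pdyn*, *Tacr3* and *Prlr* fall from left to right in all 4 libraries, *Gal* and *Vgf* rise in all 4, and *Nts* rises steeply in the Sham libraries.

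Nuclei selected on *Pomc* (at least 3 UMIs and 0.2% of UMIs, 176, 17, 20 and 175 nuclei) served as a second comparison within the ARC. Members were higher in 314 of 10884 genes (2.88%) and lower in 247 (2.27%), of which DESeq2 called 129 in all. *Col24a1* had 158, 6, 37 and 106 UMIs in members and 0, 0, 1 and 1 in the *Pomc* nuclei, and *Nr4a2*, an orphan nuclear receptor of the immediate early family, 137, 1, 27 and 92 against 5, 0, 0 and 6. *Gal* (2.00 ± 0.14), *Oprk1* (1.51 ± 0.18), *Esr1* (1.63 ± 0.19), *Trpc5* (1.46 ± 0.18) and *Cacna1g* (1.63 ± 0.18) were higher in members of 4 of 4 libraries and called by DESeq2. *Cartpt*, the CART peptide of POMC neurons, was at 195, 198, 172 and 186 CPM in members against 2319, 2040, 2604 and 1492 in *Pomc* nuclei (-3.42 ± 0.09). *Prdm12* and *Isl1*, factors of POMC neurons, *Lepr*, *Cd44* and *Serpina3n* were also lower, all by both tools. *Hcrt* and *Pmch* were called higher in members (3.11 ± 0.29 and 2.61 ± 0.27), a result carried by DOCA-salt 2, where the *Pomc* nuclei number only 17, and not made by DESeq2 (FDR 1 for both).

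The treatment was compared over the sums of members of 2 DOCA-salt and 2 Sham libraries. None of 10676 genes passed an FDR of 0.05 in either direction (0.0%), the lowest FDR being that of *Bc1* at 0.168. An unadjusted p under 0.05 was found for 487 genes (4.56% of those tested). DESeq2 called 6 genes (*Bc1*, *Reln*, *mt-Atp8*, *Vip*, *Map1a* and *C1ql3*), all lower in DOCA-salt. In the other neurons, too, none of 16346 genes passed (1462, or 8.94%, at an unadjusted p under 0.05, 123 called by DESeq2). The log2 fold change of *Bc1* (-3.30 ± 0.37) did not pass, whereas in simulated counts of this design, with genes drawn independently, 88.1% of genes changed by 2 on the log2 scale did (170 of 193, beside 16 false calls).

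The genes of the KNDy system differed as much within a treatment as between treatments. *Pdyn* changed by -0.33 ± 0.70 (FDR 0.979), *Tacr3* by 1.32 ± 0.89 (FDR 0.943), *Prlr* by -0.20 ± 0.75 (FDR 0.99) and *Esr1* by 0.16 ± 0.64 (FDR 0.991). The values depended on which DOCA-salt library stood for the treatment. Without DOCA-salt 1 they were -2.24, -1.02, -2.48 and -1.42, and without DOCA-salt 2 they were 0.45, 2.22, 0.64 and 0.88. No difference of the DOCA-salt group from Sham can be read from them in either direction. *Nr3c2* (-0.18 ± 0.47), *Fkbp5* (0.32 ± 0.43) and *Sgk1* (1.19 ± 0.86), which respond to corticosteroids or bind them, were not called either.

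*Bc1*, a short neuronal RNA, was at 145, 267, 1630 and 2350 CPM in members, at 208, 305, 2232 and 3075 in other neurons and at 139, 413 and 4175 CPM in the oligodendrocyte nuclei of DOCA-salt 1, DOCA-salt 2 and Sham 2. *Bc1* was thus lower in the DOCA-salt libraries than in the Sham libraries in each of these kinds of nuclei (-3.30 ± 0.37 in members and -3.40 ± 0.32 in other neurons, neither called, with no test in the oligodendrocyte nuclei). What was shared by all nuclei of a library cannot be told apart here from the treatment.

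Within the transmitter parts, DOCA-salt was lower in 1 of 8543 genes among glutamatergic members (0.0117%), *Bc1*, and in 9 of 6684 among GABAergic members (0.135%). It was higher in none of either. At an unadjusted p under 0.05 there were 269 (3.15%) and 546 genes (8.17%), and DESeq2 called 1 and 4 genes. The 9 genes of GABAergic members were *Bc1*, *Reln*, *C1ql3*, *Sema3c*, *Adra2a*, *Nts*, *Vip*, *Gm42418* and *mt-Atp8*. *Reln*, the extracellular matrix protein reelin, was at 5.16 and 15.5 CPM in DOCA-salt and at 135 and 194 in Sham (-3.59 ± 0.39, FDR 0.00172). *C1ql3*, a secreted synaptic protein, was at 31.0 and 34.3 CPM against 239 and 199 (FDR 0.00189), and *Nts* at 5.16 and 71.8 CPM against 509 and 385 (FDR 0.0212). *Sema3c*, a semaphorin, and *Adra2a*, an adrenergic receptor, were at 20.1 CPM or less in DOCA-salt and at 69.4 CPM or more in Sham. Genes of largest fold change were named only where the groups did not overlap, so that their separation adds nothing to the calls. DOCA-salt 1 entered with 23 GABAergic nuclei, in which *Reln*, *Sema3c*, *Adra2a* and *Nts* had 1 UMI each. All these calls in GABAergic members were lost without DOCA-salt 2. *Sema3c*, *Adra2a* and *Vip* were also lost without Sham 2, and *Vip* without Sham 1. The 4 genes of DESeq2 were *Bc1*, *mt-Atp8*, *Map7d2* and *Gal*, all lower in DOCA-salt. *Gm42418*, which is known to take up ribosomal RNA reads, and *mt-Atp8* were also lower in both DOCA-salt libraries in other neurons, where no gene was called, at 3301, 828, 10633 and 8525 CPM and at 122, 70.0, 328 and 439 CPM.

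In the test of the difference itself, the effect of DOCA-salt in members differed from that in other neurons for 4 of 15316 genes, all more negative in members (0.0261%), and for none in the other direction. They were *Oxt*, *Reln*, *Vgf* and *Sema3c*, and DESeq2 called the same 4. *Vgf* was at 155, 263, 354 and 292 CPM in members and at 173, 271, 184 and 172 in other neurons, so that the members exceeded their neighbors in the Sham libraries only. *Reln* and *Sema3c* were likewise higher in members than in other neurons of the Sham libraries and lower in those of the DOCA-salt libraries. With only the glutamatergic members, *Reln*, *Vgf* and *Sema3c* were not called, whereas with only the GABAergic members all 4 genes were.

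**Figure D5:**
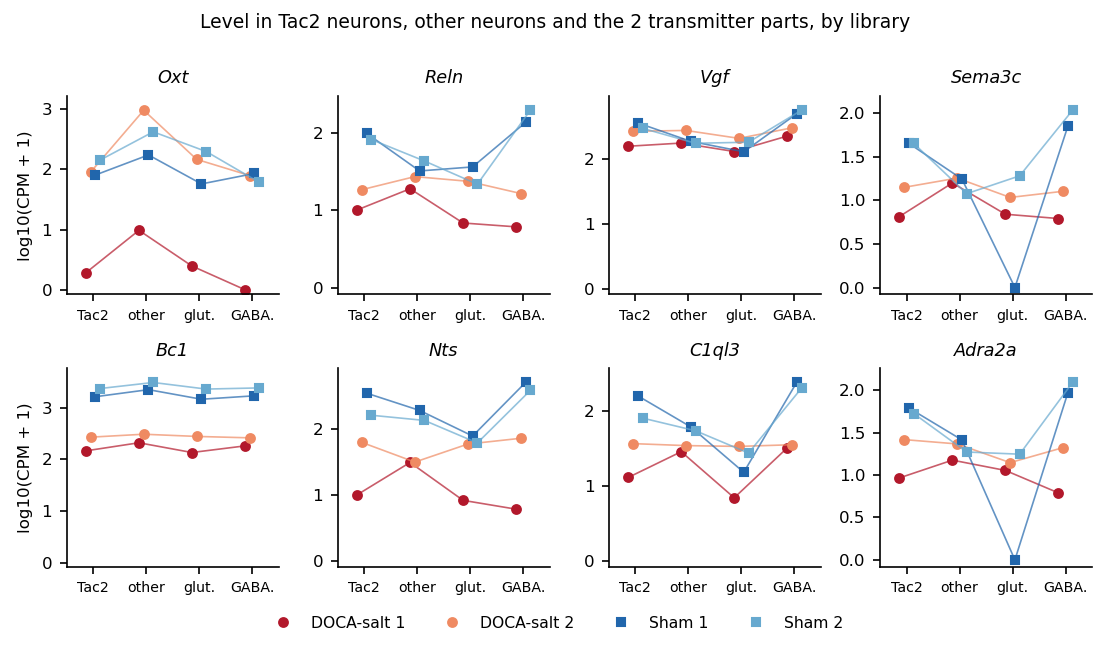
Level of 8 genes, as log10 of CPM plus 1, in all Tac2 neurons, other neurons, glutamatergic (glut.) and GABAergic (GABA.) Tac2 neurons of each library (circles DOCA-salt, squares Sham, lines join the values of 1 library). *Bc1* separates the treatments in every kind of nucleus, whereas *Reln*, *Sema3c*, *C1ql3* and *Adra2a* separate them most in GABAergic Tac2 neurons.

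No marker of glial or vascular cells was called higher in members than in other neurons, whereas both markers listed for GHRH neurons, *Ghrh* and *Gal*, were, as given above. All 5 oligodendrocyte markers had negative fold changes and 2 were called, among them *Mobp* (-0.36 ± 0.09, lost without DOCA-salt 1, Sham 1 or Sham 2), with sums of 430, 1432, 1548 and 1574 CPM against 589, 1487, 2580 and 2345 in other neurons. Of 5 astrocyte markers 1 was called (*Slc1a2*, -0.31 ± 0.08, lost without either Sham library), and none of the 5 microglial, 4 tested tanycyte, 4 endothelial or 3 mural markers was. *Meis2*, fixed as a marker of forebrain *Tac2* neurons, was at 44.9, 25.2, 2.43 and 1.68 CPM in members and at 133, 33.5, 5.1 and 5.44 in other neurons. It was higher in both DOCA-salt libraries than in both Sham libraries in each kind of nucleus, and was not called between treatments in members (FDR 0.436). *Prkcd*, another such marker, was at 5.5, 3.15, 9.7 and 16.8 CPM in members (0.39 ± 0.34 against other neurons, FDR 0.796). Their part in the other results was not tested.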

How the data were processed

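Nuclei of ARC punches were sequenced on the 10X platform. The deposited values are UMI counts per gene and barcode, made by the authors with Cell Ranger 3.0.1, per the labels on mm10, and were not normalized. Here, a barcode was kept if its genes numbered between 200 and 7000, its UMIs stayed below 25000 and its mitochondrial share below 15%. UMIs were summed per library and kind of nucleus and tested with edgeR 4.0.16 (TMM, filterByExpr, quasi-likelihood, Benjamini-Hochberg, limit 0.05) in R 4.3.3, and with DESeq2 1.42.0 as an alternative. Nuclei of a library are not replicates, so the MAST test over nuclei was not run. Shares used scipy 1.17.1, doublets scanpy 1.11.5. Doublets stayed in except in an alternative. The members, lists and tests were chosen with earlier results of these data known. Named genes were those of fixed lists and, beyond them, the called genes of largest fold change on 1 side in every library. *Map1a* and *Map7d2* were named after their values were seen. Gene positions are from GENCODE on GRCm38 (30934 of 31053 IDs matched). Nothing in the labels says that replicate numbers shared between treatments pair pools, and they were not taken as a pairing. The self-test on simulated counts, which drew genes independently and so held no deviation shared by the genes of a library, recovered 89.4% of genes changed by 2 (log2) between members and other neurons (178 of 199, beside 22 false calls) and 68.5% for the difference of effects (135 of 197, beside 10 false calls). Some listed genes are not reported here.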

Additional observations from a re-analysis of the deposited data

Results flagged for a closer look

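The effect of DOCA-salt differed between Tac2 neurons and other neurons, by a test of the difference itself (edgeR quasi-likelihood, 8 sums, library as a block), in 4 genes. *Oxt* differed by -1.99 ± 0.21 on the log2 scale (FDR 8.54e-05), with 0.916, 89.9, 80.0 and 143 CPM in members and 8.72, 966, 174 and 423 CPM in other neurons of DOCA-salt 1, DOCA-salt 2, Sham 1 and Sham 2. *Oxt* was at 241 CPM in the oligodendrocyte nuclei of DOCA-salt 2 and at 275 CPM in those of Sham 2, above the members, and was not called without DOCA-salt 2 or when members needed 5 *Tac2* UMIs and 0.1% of UMIs. *Reln* differed by -1.90 ± 0.31 (FDR 0.0271) and was not called without either Sham library, with doublets removed, among nuclei of 2000 to 10000 UMIs or with glutamatergic members only. *Vgf* differed by -0.92 ± 0.15 (FDR 0.0271) and was lost without either Sham library, with doublets removed and with glutamatergic members only. *Sema3c* differed by -2.45 ± 0.41 (FDR 0.0306) and was lost without Sham 2, with doublets removed, among nuclei of 2000 to 10000 UMIs and with glutamatergic members only. With GABAergic members only, all 4 were called. All 4 kept their negative sign in every alternative run. The parts of free RNA, of dissection and of the makeup by transmitter in these 4 results were not tested.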

How the results depend on the processing

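The number of genes called in members against other neurons (242) was 123 with DESeq2, 433 without a filter of low counts, 429 with a gate of 5 *Tac2* UMIs and 0.1%, 121 among nuclei of 2000 to 10000 UMIs, 0 without the library block and 613 with glutamatergic members only. It ranged from 108 (without Sham 1) to 793 (without DOCA-salt 2) when 1 library was left out, and was 137 without Sham 2. Between DOCA-salt and Sham in members (0), the count was 6 with DESeq2, 29 without the filter, 2 with the stricter gate, 2 with the gate on nuclei thinned to 2000 UMIs and 1 in the depth window, and from 0 to 985 with 1 library left out (985 without DOCA-salt 1, 204 without DOCA-salt 2). In these last fits the lone library of a group is assumed to vary like the others. For the difference of that effect from other neurons (4), the count was 15 without the filter, 11 with the stricter gate, 13 with the thinned gate, 2 in the depth window, 1 with doublets removed and 37 with GABAergic members only, and from 1 to 104 with 1 library left out (104 without DOCA-salt 1, 98 without DOCA-salt 2, 2 without Sham 1, 1 without Sham 2). In other neurons (0), the treatment gave 123 with DESeq2, 260 without the filter and 0 to 1531 with 1 library left out (1531 without DOCA-salt 1, 288 without DOCA-salt 2). Glutamatergic against GABAergic members (104) gave 18 with DESeq2 and 11 to 169 (169 without DOCA-salt 2, 38 without Sham 1, 11 without Sham 2), and members against *Pomc* nuclei (561) gave 129 with DESeq2 and 230 to 561 (317 without DOCA-salt 1, 230 without Sham 2). The treatment gave 9 without the filter and 2 to 510 with 1 library left out in glutamatergic members (1; 510 without DOCA-salt 1, 48 without DOCA-salt 2, 2 without Sham 1, 5 without Sham 2), and 4 with DESeq2, 52 without the filter and 0 to 555 in GABAergic members (9; 555 without DOCA-salt 1, 0 without DOCA-salt 2, 14 without Sham 2). The replicate block, which enters the shared number as a pairing, gave 1 gene in members, 11 for the difference of effects, 9 in other neurons, 6 in glutamatergic and 6 in GABAergic members. Same-numbered sums deviated in opposite directions (r = -0.17 in members and -0.23 in other neurons, across genes, which are not independent), and the crossed pairing as a block gave 11 genes in members and 8 in other neurons. The causes were not tested. Where the main fit or the alternative called the gene, the sign reversed for *Esr1* between treatments without DOCA-salt 1 (-1.42, the range with 1 library left out reaching 0.88). The same held for *Pdyn* with GABAergic members only (-0.26). By construction of the split, it also held for *Slc17a6* with GABAergic (-1.87) and *Slc32a1* with glutamatergic members only (-1.71). The share of neurons that were members kept its direction in all alternatives run (0.541 to 1.40 points), as did the share of all kept nuclei (0.413 points). Each treatment had only 2 pools, and the parts rest on few nuclei in some libraries (12 glutamatergic in Sham 1, 23 GABAergic each in DOCA-salt 1 and Sham 1). Of 1242 values for 113 single-gene results under the alternatives, 981 kept direction and side of the threshold, 229 lost the call and 12 gained it. A further 16 changed sign with the gene called in neither fit, and 4 are the reversals given above. Alternatives that were not planned, among them the transmitter parts and the crossed pairing, were chosen after seeing the data.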
